A study of Bubalus bubalis with 6 samples.

Results

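Adipokines are proteins that fat cells and their precursors release, and through them fat tissue signals to vessels, immune cells, muscle and brain. The names examined were ADIPOQ, LEP, RETN, ANGPTL4, ANGPTL2, NAMPT, RARRES2, ADM, SERPINF1 and NUCB2, and every gene model of the deposited buffalo (Bubalus bubalis) table that carries such a name was taken. Of the 10 names, 7 had a row, with 1 model each, out of 19476 models in all. LEP (leptin), RETN (resistin) and ANGPTL2 had no row under these names and are not analysed here. Of the 7 models, 6 reached 1 FPKM in at least 3 samples and were tested, and ADIPOQ did not. FPKM is the number of fragments scaled to the length of a model and to the mapped fragments of a sample, so levels of different genes can be set side by side.

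The samples were cultured cells labelled as intramuscular adipocytes, the fat cells that lie between muscle fibres. In the control group, labelled WT and called controls or EGFP samples here, 3 samples received an adenovirus for EGFP, a green fluorescent protein. In the other group, labelled as overexpressing lncFABP4, 3 samples received an adenovirus for that long non-coding RNA. All 6 samples carried a virus, were grown in serum, entered adipogenic inducing medium 48 hours after transduction and were collected on day 4, after 48 hours of induction. The labels mention wells plated in triplicate and name neither separate donor animals nor separate cultures. The p-values therefore reflect the spread among these samples only, which may be technical. The viral dose is not given in the labels.

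Adipokine genes belong to different stages of a fat cell. Adiponectin and leptin mark the mature, lipid-filled cell. Adrenomedullin, pigment epithelium-derived factor (PEDF, the product of SERPINF1) and chemerin (the product of RARRES2) are also made by precursor and stromal cells. ANGPTL4 is induced by fatty acids through the PPAR receptors, by fasting and by low oxygen, and NAMPT is both an enzyme of NAD synthesis inside the cell and a secreted protein called visfatin.

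Across all 11064 models tested, 26.7% had a limma adjusted p under 0.05, with 16.5% higher and 10.2% lower in the lncFABP4 samples, and the median change was 0.05 (log2). Of the calls, 61.8% were higher with the values as deposited, 50.8% with quantile scaling and 49.2% with TMM or median-of-ratios factors. The 1827 higher and 1131 lower calls came to 1183 and 765 without EGFP replicate 1 and to 1161 and 674 without EGFP replicate 3. They came to 1126 and 689 without lncFABP4 replicate 2, and to 1028 and 645 without lncFABP4 replicate 3. Without EGFP replicate 2 they were 1719 and 1057, and without lncFABP4 replicate 1 they rose to 2022 and 1446. FABP4, the fatty acid carrier whose name the long non-coding RNA bears, stood at 167 ± 26.0 FPKM in the controls and 9699 ± 2855 FPKM with lncFABP4 (SD, n = 3 each). Whether reads of the transduced RNA fall on the FABP4 model was not tested. The label of fat cells was met in part: of 10 fat cell markers 7 had a row and 5 were tested, ADIPOQ and CEBPA being under the minimum. CIDEC, LPL and CFD had control means of only 2.07, 2.78 and 1.73 FPKM, and PPARG stood at 12.2 FPKM. The summed fat cell markers ranged from 168 to 216 FPKM in the controls and from 6534 to 12034 FPKM in the lncFABP4 samples, most of it FABP4. Summed progenitor and fibroblast markers (7 of 8 names found, led by DCN and COL1A1) ranged from 8008 to 8600 FPKM in the controls and from 5145 to 5644 FPKM in the lncFABP4 samples. Summed pericyte markers (4 of 5 names) ranged from 63.2 to 67.8 and from 24.0 to 35.1 FPKM, muscle markers (4 of 7) from 4.33 to 5.05 and from 2.21 to 2.84 FPKM, and macrophage and leukocyte markers (5 of 6) from 25.8 to 33.2 and from 41.0 to 44.4 FPKM, with PTPRC at most 0.0113 FPKM. Members of that last list moved in both directions, CD14 from 10.6 to 27.5 FPKM (called higher) and CD163 from 9.04 to 5.91 FPKM (called lower), and CD68 was not called at 9.46 and 8.88 FPKM. Pericyte markers did not move as a block either. KCNJ8 fell from 48.8 to 18.4 FPKM and ABCC9 from 10.7 to 4.92 FPKM (both called lower). The less abundant CSPG4 model rose from 0.991 to 1.76 FPKM (called higher), and NOTCH3 and the other CSPG4 model were not called. The part of these cell types in the results below was not tested.

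Of the 6 tested adipokine models, 3 were lower after lncFABP4 transduction (ADM, SERPINF1 and RARRES2), 0 were higher and 3 were not called (ANGPTL4, NAMPT and NUCB2). The shares over all models tested were 10.2% lower and 16.5% higher. At an unadjusted p under 0.05 the count of higher adipokine models was also 0. All 3 lower models had groups that did not overlap, which held for 43.9% of all models tested (17.2% on the lower side and 26.6% on the higher). The order of levels was the same in all 6 samples, with ADM highest, followed by SERPINF1, ANGPTL4, NAMPT, NUCB2, RARRES2 and ADIPOQ. Within either group no neighbours in that order overlapped. ADM stood between ranks 69 and 80 of all models in the EGFP samples and between ranks 169 and 210 in the lncFABP4 samples. SERPINF1 stood between ranks 166 and 201 and then between 329 and 431, whereas ANGPTL4 held ranks 604 to 706 and 651 to 745.

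**Figure D1:**
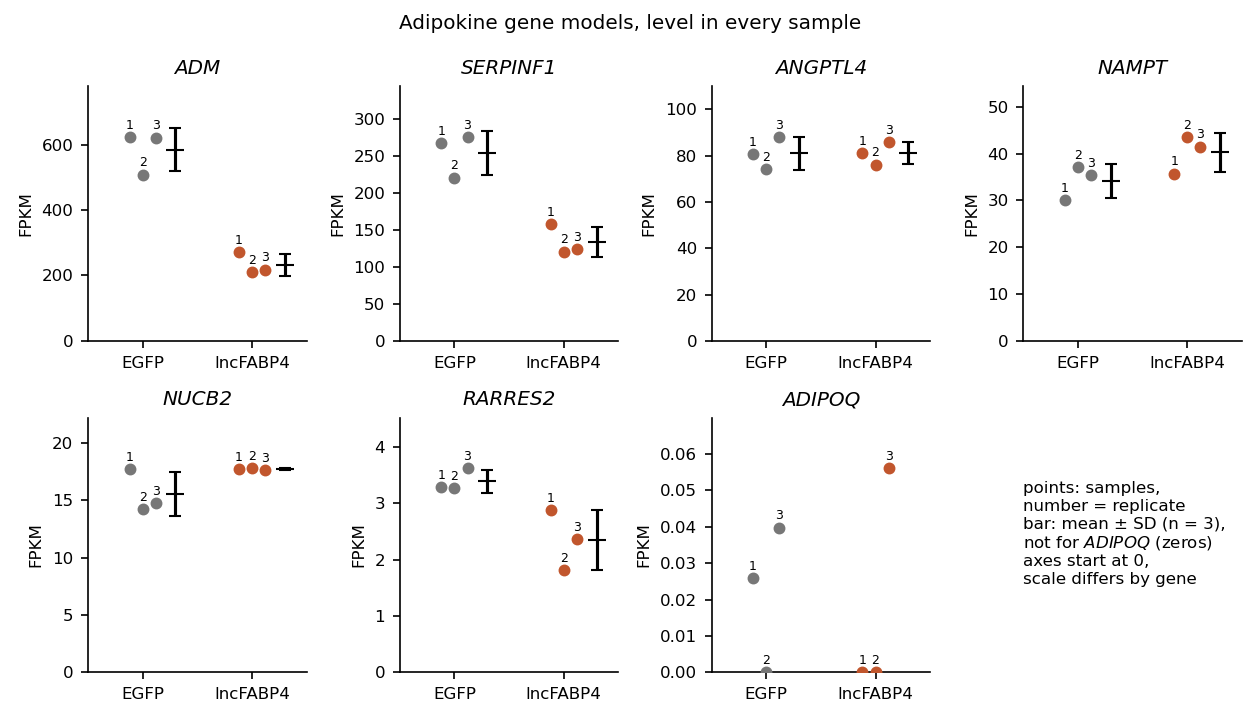
Level of each adipokine model in FPKM (vertical axis, from 0, with its own scale per gene) in the 3 EGFP and 3 lncFABP4 samples; points are samples numbered by replicate, and bars are mean ± SD, left out for ADIPOQ, which was listed at 0 in 3 samples. ADM and SERPINF1 separate the groups without overlap, and ANGPTL4 lies between 74.1 and 88.1 FPKM in all samples.

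ADM encodes adrenomedullin, a peptide that widens vessels and acts on fat and stromal cells. It was listed at 623, 508 and 621 FPKM in EGFP replicates 1, 2 and 3 and at 271, 209.75 and 217 FPKM in lncFABP4 replicates 1, 2 and 3. The lowest EGFP sample was thus far above the highest lncFABP4 sample. ADM fell from 584 ± 65.6 to 233 ± 33.4 FPKM (SD, n = 3 each), to 39.9% of the control level, a change of -1.33 on the log2 scale (SE 0.12, limma adjusted p = 0.000419). A change of at least 1 (log2) downwards was called for 0.804% of all models tested. Log2 changes are of FPKM + 1, where those of low models come out too small, so this share omits some comparable falls. LPL and LCN2 were called lower at 36.0% and 37.1% of the control level, with log2 changes of -0.90 and -0.74. The ADM call was kept in 19 of 19 alternative settings. In bulk RNA, fewer cells of a type and less RNA per cell cannot be told apart.

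The genes of the adrenomedullin receptor did not move as a block. The receptor of adrenomedullin is formed by CALCRL, the protein that spans the membrane, together with RAMP2, which gives it its preference for this peptide. CALCRL was listed at 9.45, 9.35 and 10.3 FPKM in the controls and at 4.22, 3.80 and 4.10 FPKM with lncFABP4. It fell to 41.6% of the control level (log2 -1.09, SE 0.08, limma adjusted p = 0.000282), with no overlap between groups. RAMP2 held 37.5, 33.2 and 36.7 FPKM and then 37.8, 38.4 and 35.8 FPKM. These ranges overlapped, and RAMP2 was not called, with a log2 change of 0.06 whose unadjusted 95% interval ran from -0.11 to 0.23 and which was -0.04 with quantile scaling. RAMP3, an alternative partner of CALCRL, was listed at 0.0250 FPKM in EGFP replicate 3 and at 0 in the other samples.

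Endothelial cells are a known site of CALCRL and RAMP2. Of the endothelial markers all 5 had a row and 1, VWF, was tested. PECAM1 was at 0 in all EGFP samples and at most 0.0191 FPKM elsewhere. CDH5, at most 0.0679 FPKM, had means of 0.0518 and 0.0197 FPKM and was lower without overlap between groups. TEK, with means of 0.208 and 0.321 FPKM, and KDR, with means of 0.0113 and 0.0268 FPKM, were higher, also without overlap. VWF had means of 3.05 and 4.12 FPKM and was called higher. The summed list ranged from 3.11 to 3.52 FPKM in the controls and from 4.39 to 4.63 FPKM in the lncFABP4 samples, and most of it was VWF. The part of these cells in the change of CALCRL was not tested.

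The named models whose profile over the 6 samples lay nearest to that of ADM were FOS, PTGS1 and MAOB. Likeness was the mean absolute difference in log2(FPKM + 1) after centring each model on its EGFP mean, and it came to 0.05 for FOS, 0.09 for PTGS1 and 0.09 for MAOB. FOS, an immediate early transcription factor, held 74.2, 62.5 and 81.7 FPKM in the controls and 32.3, 24.8 and 27.9 FPKM with lncFABP4. PTGS1, a cyclooxygenase of prostaglandin synthesis, went from 16.7 to 6.24 FPKM, and MAOB, a monoamine oxidase, from 10.7 to 3.81 FPKM.

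SERPINF1 encodes PEDF, a secreted serpin that does not inhibit proteases and that restrains vessel growth. The table lists it at 267, 220.5 and 276 FPKM in the controls and at 158, 121 and 124 FPKM with lncFABP4. Every lncFABP4 sample lay below every EGFP sample. SERPINF1 fell from 254 ± 29.6 to 134 ± 20.5 FPKM, to 52.7% of the control level (log2 -0.92, SE 0.12, limma adjusted p = 0.00196), and the call was kept in 19 of 19 alternative settings.

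The log2 change of ADM was the larger in size, and the ratio of both genes within a sample varied little between replicates. ADM stood at 2.33, 2.31 and 2.25 times the FPKM of SERPINF1 in the controls and at 1.72, 1.74 and 1.75 times in the lncFABP4 samples. The groups did not overlap, with means of 2.30 ± 0.0415 and 1.74 ± 0.0173 (SD, n = 3), and the two-sided exact permutation p of 0.1 is the smallest that 3 against 3 samples can give. That p follows from the lack of overlap and adds no support to it. The pair joins the adipokine models with the smallest adjusted p in these same samples. The ratio does not depend on a scaling factor per sample.

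PEDF has been described to bind PNPLA2, the main triglyceride lipase of fat cells, and the plexin domain proteins PLXDC1 and PLXDC2. PNPLA2 rose from 20.9 ± 1.75 to 26.8 ± 1.78 FPKM (log2 0.35, SE 0.09, limma adjusted p = 0.0226). The groups were 22.5, 19.0 and 21.2 FPKM against 28.7, 25.1 and 26.7 FPKM, without overlap. That call was lost without EGFP replicate 2 (limma adjusted p = 0.0522), EGFP replicate 3 (0.0628) or lncFABP4 replicate 3 (0.0723), and with quantile scaling (0.0657). PLXDC2 was not called at 77.9 ± 4.23 and 77.1 ± 4.94 FPKM, with a log2 change of -0.02 (unadjusted 95% interval -0.19 to 0.16) that turned positive after rescaling without FABP4. PLXDC1 was listed at 0 in 4 samples and at most 0.0260 FPKM in the others.

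RARRES2 encodes the precursor of chemerin, which attracts immune cells and acts on fat cell formation. Its values were 3.28, 3.26 and 3.62 FPKM in the controls and 2.87, 1.82 and 2.37 FPKM with lncFABP4. The groups did not overlap, although lncFABP4 replicate 1 came close to the controls. The model passed the threshold by a small margin, from 3.39 ± 0.199 to 2.35 ± 0.529 FPKM (log2 -0.40, SE 0.13, limma adjusted p = 0.0496). It was no longer called without EGFP replicate 1 (limma adjusted p = 0.103), EGFP replicate 2 (0.0806), EGFP replicate 3 (0.140), lncFABP4 replicate 2 (0.146) or lncFABP4 replicate 3 (0.115). Nor was it called with no filter on low values (0.114) or with a pseudocount of 0.1 (0.0544) or 0.01 (0.0550). The chemerin receptors CMKLR1, GPR1 and CCRL2 had no row under these names and are not analysed here.

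ANGPTL4 encodes a secreted inhibitor of lipoprotein lipase. It was listed at 80.7, 74.1 and 88.1 FPKM in the controls and at 81.2, 76.1 and 85.9 FPKM with lncFABP4. The lncFABP4 samples all lay inside the range of the EGFP samples. Means were 81.0 ± 6.99 and 81.1 ± 4.88 FPKM, and the model was not called (limma adjusted p = 0.979). The log2 change was 0.00 with an unadjusted 95% interval from -0.19 to 0.20, and it was -0.05 with TMM or median-of-ratios factors and -0.08 with quantile scaling.

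The lipase that ANGPTL4 inhibits was far less abundant. LPL, which releases fatty acids from circulating triglyceride, was listed at 2.34, 2.40 and 3.60 FPKM in the controls and at 0.910, 1.18 and 0.903 FPKM with lncFABP4. It fell to 36.0% of the control level in mean FPKM. The log2 change of FPKM + 1, which comes out too small at such low levels, was -0.90 (SE 0.14, limma adjusted p = 0.00349). ANGPTL4 thus stood at 34.5, 30.9 and 24.5 times the FPKM of LPL in the controls and at 89.1, 64.3 and 95.1 times in the lncFABP4 samples. These ratios did not overlap, but in the lncFABP4 samples they rest on LPL values near the minimum of 1 FPKM. GPIHBP1 and LMF1, which carry and mature the lipase, had no row under these names and are not analysed here.

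ANGPTL4 is a classical PPAR target, and other genes of that kind moved while it did not pass. In a list of 22 PPAR-responsive names and the PPAR genes, 16 models were tested, of which 7 were higher, 2 lower and 7 not called, with a median log2 change of 0.21 against 0.05 over all models. Among all models tested, 16.5% were called higher and 10.2% lower. PPARG, the receptor that drives fat cell formation, rose from 12.2 ± 0.527 to 25.2 ± 1.77 FPKM (log2 0.98, limma adjusted p = 0.000321). G0S2, an inhibitor of PNPLA2, rose 2.76-fold and CPT1A, which admits fatty acids to mitochondria, 1.68-fold. The lower models were LPL and PDK4, a kinase that restrains the use of pyruvate, which fell from 67.8 ± 8.62 to 39.5 ± 2.64 FPKM (log2 -0.76, limma adjusted p = 0.00211). The list holds FABP4 itself.

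NAMPT makes nicotinamide mononucleotide, the rate-limiting step of NAD salvage. NAMPT held 30.0, 37.1 and 35.4 FPKM in the controls and 35.7, 43.6 and 41.5 FPKM with lncFABP4. EGFP replicate 2 lay above lncFABP4 replicate 1, so the groups overlapped. Means were 34.2 ± 3.69 and 40.3 ± 4.08 FPKM, with a log2 change of 0.23 (unadjusted 95% interval -0.01 to 0.48), and the model was not called (limma adjusted p = 0.143).

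Enzymes around NAMPT moved in both directions. Of 18 names for NAD synthesis and use, 14 had a row and 12 models were tested, with 4 higher, 2 lower and 6 not called (median log2 change 0.13). Beside this stand 16.5% higher and 10.2% lower over all models tested. SIRT3, a mitochondrial deacylase that uses NAD, rose from 2.14 ± 0.293 to 4.88 ± 0.629 FPKM (log2 0.91, limma adjusted p = 0.00152). PARP1, which consumes NAD in DNA repair, rose by 0.38. QPRT, which makes NAD precursors from tryptophan breakdown, fell from 13.2 ± 2.09 to 7.30 ± 1.598 FPKM (log2 -0.78, limma adjusted p = 0.00905). NMNAT1, which turns the product of NAMPT into NAD, held 10.9, 12.2 and 11.9 FPKM against 13.9, 19.3 and 16.6 FPKM (log2 0.46, limma adjusted p = 0.0224). NMRK1, the kinase of nicotinamide riboside, had a log2 change of 0.53 (limma adjusted p = 0.0196). The NMNAT1 call was lost without EGFP replicate 1 (limma adjusted p = 0.0782), EGFP replicate 3 (0.0615), lncFABP4 replicate 2 (0.0662) or lncFABP4 replicate 3 (0.0705), and with no filter on low values (0.0533). That of NMRK1 was lost without EGFP replicate 2 (0.0532), EGFP replicate 3 (0.0562), lncFABP4 replicate 2 (0.0638) or lncFABP4 replicate 3 (0.0722), and with no filter (0.0517). In the list, 2 models were higher without EGFP replicate 3, lncFABP4 replicate 2 or lncFABP4 replicate 3, and 1 was lower when any library but lncFABP4 replicate 1 was left out. With TMM or median-of-ratios factors 4 models of the list were lower, with no filter 2 were higher and 1 lower, and with a pseudocount of 0.1 or 0.01 or a filter of 5 FPKM 1 was lower.

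NUCB2 encodes a calcium-binding protein from which the appetite peptide nesfatin is cut. Values of 17.7, 14.2 and 14.7 FPKM were found in the controls and of 17.7, 17.8 and 17.6 FPKM with lncFABP4. EGFP replicate 1 lay among the lncFABP4 samples, which were nearly equal to each other. The model was not called, at 15.5 ± 1.88 and 17.7 ± 0.0869 FPKM, with a log2 change of 0.18 (unadjusted 95% interval -0.03 to 0.40, limma adjusted p = 0.181).

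**Figure D2:**
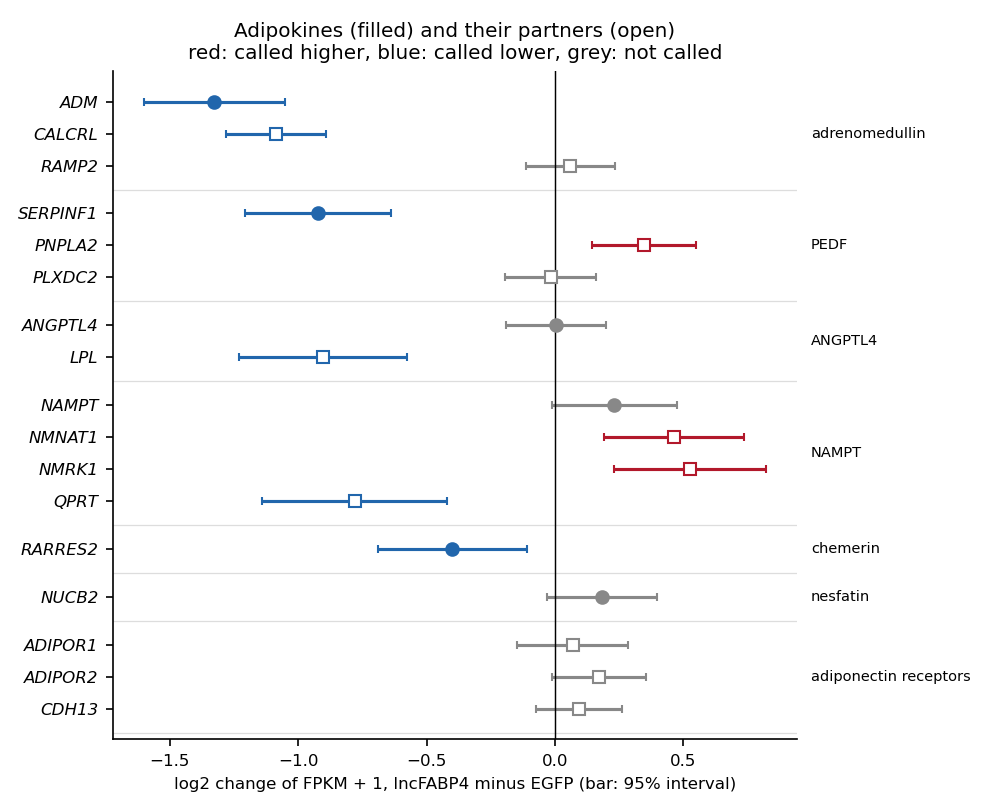
Log2 change of FPKM + 1, lncFABP4 minus EGFP (horizontal axis), with unadjusted 95% intervals, for the tested adipokine models (filled circles) and genes that receive, bind or work beside them (open squares), grouped by adipokine. ADM and CALCRL lie on the lower side, with RAMP2 around 0, and ANGPTL4 lies at 0.00 while LPL is at -0.90.

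ADIPOQ encodes adiponectin, the most abundant hormone of mature fat cells. It was listed at 0.0258, 0 and 0.0397 FPKM in the controls and at 0, 0 and 0.0559 FPKM with lncFABP4. No difference between groups was detectable at this level, and the model was not tested. Its receptors were present throughout. ADIPOR1 held 28.4 ± 2.96 FPKM in the controls and 29.7 ± 1.93 FPKM with lncFABP4 and was not called (log2 change 0.07, unadjusted 95% interval -0.15 to 0.29, and -0.01 with quantile scaling). The more abundant model of ADIPOR2 held 36.7 ± 1.36 and 41.5 ± 3.32 FPKM (log2 0.17, unadjusted 95% interval -0.01 to 0.35), and CDH13, a cadherin that binds adiponectin, 77.6 ± 4.45 and 82.9 ± 3.79 FPKM (0.09, -0.07 to 0.26). Neither was called.

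Genes for the folding and release of adiponectin were mostly above the minimum, unlike ADIPOQ. Of 11 names 9 had a row, and of 10 models tested 2 were higher, 0 lower and 8 not called. Shares over all models tested were 16.5% higher and 10.2% lower. At an unadjusted p under 0.05 the counts in the list were 2 higher and 1 lower, and with TMM or median-of-ratios factors 1 model of it was called lower. The higher models were both models of CALR, a chaperone of the endoplasmic reticulum, with log2 changes of 0.50 and 0.46, which can share reads. In the wider list of adipokine receptors and partners, 15 models were tested, with 3 higher, 2 lower (CALCRL and LPL) and 10 not called (median log2 change 0.07). This list too is to be read beside 16.5% higher and 10.2% lower over all models tested. Besides PNPLA2, the higher ones in the list were CAP1, described in human cells as a resistin receptor (log2 0.43, limma adjusted p = 0.00446), and the integrin ITGA5 (0.34). LEPR, the leptin receptor, was at most 0.0191 FPKM. The receptors and partners CALCRL, LPL, CAP1 and ITGA5 were named by their adjusted p; other partners were named for their role, after their values had been seen.

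Other secreted factors of fat tissue moved both ways. Of 38 names, 28 had a row, and of 26 models tested 4 were higher, 9 lower and 13 not called, with a median log2 change of -0.27 against 0.05 over all models. Calls over all models tested came to 16.5% higher and 10.2% lower. FSTL1, a glycoprotein related to follistatin, was listed at 195, 212 and 195 FPKM in the controls and at 589, 561 and 552 FPKM with lncFABP4. It rose 2.83-fold (log2 1.49, SE 0.07, limma adjusted p = 2.22e-05), so that its level passed that of ADM in every lncFABP4 sample, while it was below ADM in every EGFP sample. CCL2, a chemokine for monocytes, rose 2.85-fold and GDF15, a stress-induced cytokine, by 1.34 (log2). HP, the haemoglobin-binding acute-phase protein haptoglobin, fell from 107 ± 11.6 to 28.9 ± 3.42 FPKM (log2 -1.86, limma adjusted p = 9.12e-05). The growth factor IGF1 fell from 4.48 to 1.18 FPKM, to 26.2% of the control level. Its log2 change of FPKM + 1, which comes out too small at such levels, was -1.33. SAA1 had log2 changes of -2.06 and -1.68 in its models, which can share reads, and C1QTNF6 of -1.47. The remaining lower models were BMP4, LCN2, METRNL and SPARC, and IL6 was the remaining higher model.

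Among the adipokines outside the 10 names, RBP4, the retinol carrier, held 216, 141 and 236 FPKM in the controls and 266, 226 and 229 FPKM with lncFABP4. The groups overlapped and it was not called (log2 change 0.31, unadjusted 95% interval -0.10 to 0.72). CFD, the fat cell protease adipsin, held 1.73 ± 0.0538 and 2.04 ± 0.210 FPKM and was not called either (log2 change 0.15, unadjusted 95% interval -0.06 to 0.37). RBP4, CFD, GDF15, SAA1, C1QTNF6, BMP4, LCN2, METRNL, SPARC, IL6, PDK4 and NMNAT1 were chosen after their values had been seen.

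**Figure D3:**
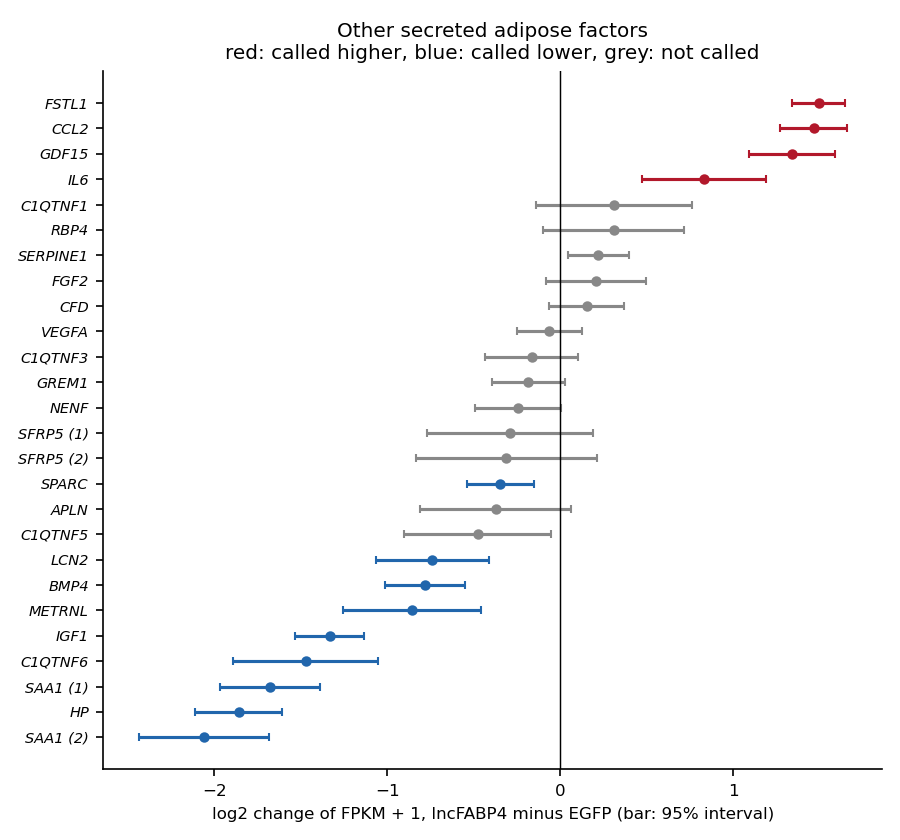
Log2 change of FPKM + 1, lncFABP4 minus EGFP (horizontal axis), with unadjusted 95% intervals, for the 26 tested models of other secreted factors of fat tissue, in order of change; numbers in brackets separate models of the same name. FSTL1 and CCL2 are at the top at 1.49 and 1.47, and SAA1 and HP at the bottom.

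Of 6 other ANGPTL names 2 had a row and 1 was tested. ANGPTL5 was listed at 1.26, 2.25 and 1.94 FPKM in the controls and at 1.27, 0.739 and 0.531 FPKM with lncFABP4. It was called lower (log2 change -0.61, limma adjusted p = 0.0390), although lncFABP4 replicate 1 was level with EGFP replicate 1. The call was lost without EGFP replicate 2 (limma adjusted p = 0.106), EGFP replicate 3 (0.112), lncFABP4 replicate 2 (0.0985) or lncFABP4 replicate 3 (0.127), and with no filter on low values (0.0950).

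ADM, ANGPTL4 and NAMPT are known to respond to low oxygen, and a list of 24 names of that response had 21 tested models, of which 3 were higher, 6 lower and 12 not called (median log2 change -0.15). With models summed per gene name, 2 of the list were higher. For all models tested the shares were 16.5% higher and 10.2% lower. CA9, a carbonic anhydrase at the cell surface, fell from 5.19 ± 0.501 to 1.69 ± 0.109 FPKM (log2 -1.20, limma adjusted p = 0.000297), and PFKFB3, which speeds up glycolysis, was changed by -0.62. The other lower models were EGLN3 (-0.64), NDRG1 (-0.34), BNIP3L (-0.27) and DDIT4 (-0.26). VEGFA, SLC2A1, PDK1, HK2, BNIP3, P4HA1, P4HA2, EGLN1, MXI1, KDM3A, HIF1A and EPAS1 were not called. Their log2 changes ran from -0.26 (PDK1) to 0.20 (HIF1A). These lower and uncalled models were named after their values had been seen. The higher models were those of the glycolytic genes PGK1 and LDHA. PGK1 rose by 0.44, and LDHA by 0.38 in its more abundant model and by 0.30 in the other. These LDHA models can share reads. The more abundant LDHA model was no longer called with no filter on low values (limma adjusted p = 0.0696). Glucocorticoids, which raise ANGPTL4 in fat cells, are the subject of a further list: of 13 models tested 5 were higher, 5 lower and 3 not called (median log2 change 0.12). The same shares of 16.5% and 10.2% over all models tested stand beside it. When models were summed per gene name, 4 of this list were higher. SGK1, a kinase induced by steroids, fell from 16.4 ± 3.54 to 5.32 ± 1.605 FPKM (log2 -1.47), and ZBTB16, KLF9 and GLUL were changed by -0.66, -0.56 and -0.51. TSC22D3 was lower too (-0.56). The higher models were HSD11B1 (0.68, at most 1.71 FPKM), SESN1 (0.57), both models of ERRFI1 (0.54 and 0.50) and DUSP1 (0.25). FKBP5, NR3C1 and PER1 were not called (0.12, 0.12 and -0.02). TSC22D3 and the higher and uncalled models were named after their values had been seen. Without EGFP replicate 3, lncFABP4 replicate 2 or lncFABP4 replicate 3, 3 models of this list were higher.

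**Figure D4:**
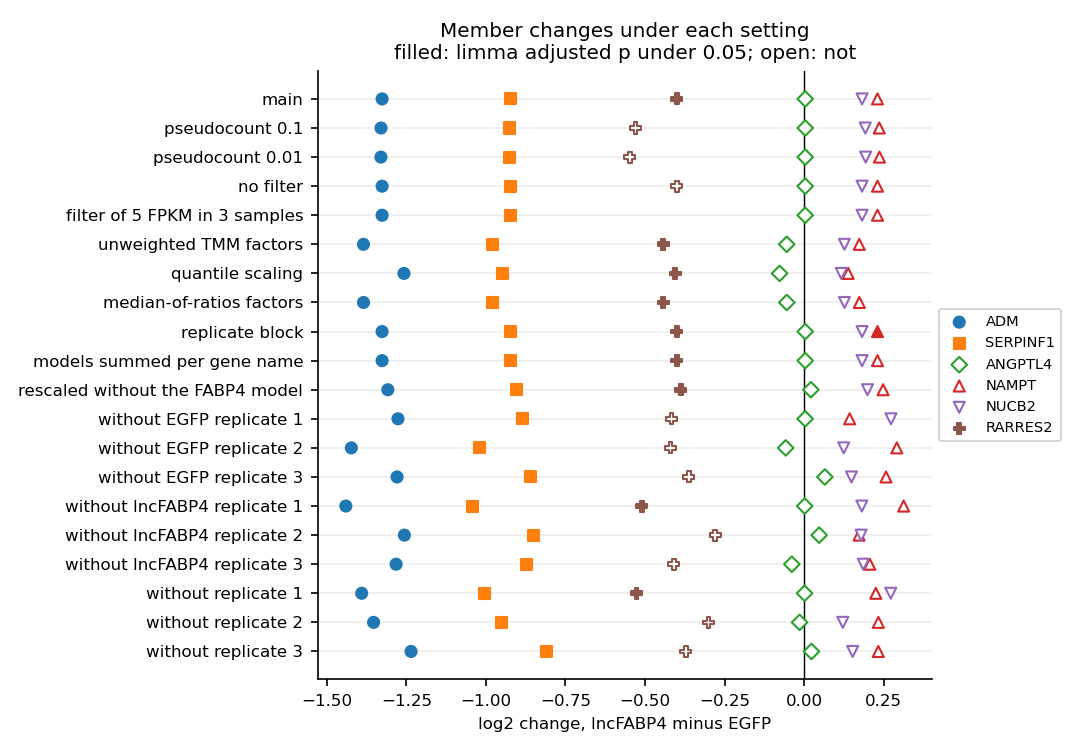
Log2 change, lncFABP4 minus EGFP (horizontal axis), of the 6 tested adipokine models in the main setting and under each alternative (rows); filled symbols have a limma adjusted p under 0.05. ADM and SERPINF1 stay on the lower side and filled in every row, RARRES2 is open in 10 of the 18 alternatives that test it, and ANGPTL4 lies on either side of 0.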

How the data were processed

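Polyadenylated RNA was sequenced on a DNBSEQ platform. HISAT2 and StringTie are named without versions in the submitters' processing notes; build and annotation are not stated in the material used, and coordinates are therefore left out. The deposited table gives 1 decimal value per gene model and sample, read as FPKM because column totals differ (340165 to 360920); its header names no unit. Gene names come from the authors' protein matches. All 6 value columns were used. The number of reads is unknown; steps shared by models under 0.3 FPKM gave depths relative to EGFP replicate 1 of 0.923 to 1.01.

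The 11064 models that reached 1 FPKM in 3 or more samples were tested with limma 3.58.1 in R 4.3.3 on log2(FPKM + 1), lncFABP4 minus EGFP, with a mean-variance trend, two-sided, and Benjamini-Hochberg adjustment over all of them at 0.05. On this scale the changes of low genes come out too small. Calls, intervals and SE come from this fit, and fold changes and percentages from mean FPKM. Genes were named by a rule: all adipokine models, FABP4, PPARG, LPL, up to 4 models per list with the smallest adjusted p, and the 3 models nearest to any adipokine changed by at least 1 (log2); those named outside it are said to be chosen after their values were seen. One gene of the list of receptors and partners is not reported here and was left out of its counts. Members and lists were chosen with earlier results of these data known. Alternatives were no filter, a filter at 5 FPKM, pseudocounts of 0.1 and 0.01, unweighted TMM, quantile and median-of-ratios scaling, a replicate block, models summed per name, and each sample or replicate number left out. Rescaling without FABP4 was added after seeing the data, as were the alternatives for genes outside the adipokines. Count models were not used, since the values are not counts.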

Additional observations from a re-analysis of the deposited data

How the results depend on the processing

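ADM and SERPINF1 kept their direction and their call in all 19 alternatives, with log2 changes from -1.44 to -1.24 and from -1.04 to -0.81. RARRES2 lost its call in 10 of 18. NAMPT and NUCB2 kept a positive sign throughout. The count of lower adipokine models was 2 to 3 with a sample left out, and that of higher ones 0. Over all models, 1028 to 2022 were higher and 645 to 1446 lower with 1 sample left out; with a replicate number left out of both groups, 335 to 1449 were higher and 232 to 990 lower. In the list of receptors and partners, 2 models were lower, and 1 with a filter of 5 FPKM, which leaves LPL untested. Values near 0 turned sign. ANGPTL4 was -0.054 with TMM, -0.054 with median-of-ratios and -0.077 with quantile scaling, and -0.058 to 0.065 with samples left out. RAMP2 was -0.038 and ADIPOR1 -0.013 with quantile scaling; with samples left out they ranged from -0.013 to 0.11 and from -0.018 to 0.19. PLXDC2 was 0.0015 after rescaling without FABP4 and -0.059 to 0.037 with samples left out. With number 2 left out of both groups, ITGA5, PNPLA2, the more abundant LDHA model, PARP1, NMRK1, NMNAT1, RARRES2 and ANGPTL5 were not called, and with number 3 left out these and CAP1, both CALR models, ZBTB16, GLUL, PGK1, PFKFB3 and QPRT. The causes were not tested.

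Same-numbered samples deviated together for numbers 1 and 2 (r across models 0.18 and 0.29) and not for number 3 (-0.08), and neither were all of them nearest to their own number, so the numbers were not taken to pair samples. With the replicate number as a block, 1 adipokine model was higher, NAMPT (log2 0.23, limma adjusted p = 0.0362), ANGPTL5 was not called (0.0626), and 2061 models were higher and 1275 lower in all. ADIPOQ was tested with no filter alone (limma adjusted p = 0.940). Reads behind each value are unknown, so no counting error could be given, and levels under 1 FPKM are described by value only.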

Other observations

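Within both groups replicate 2 had the lowest level of ADM, SERPINF1, ANGPTL4 and RARRES2 and the highest level of NAMPT. Over all 11064 models tested, replicate 2 was lowest in both groups for 19.2% and highest in both for 17.5%. The members' pattern was noticed in the data and was not tested.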
